A study of Caenorhabditis elegans with 2 samples.

Results

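The RNA genes of 3 ribonucleoprotein particles were examined for peaks of DAF-8 ChIP-seq: rpr-1, the RNA of RNase P, mrpr-1, the RNA of RNase MRP, and srpr-1.2 and srpr-2.1, which are 2 of the gene copies for the RNA of the signal recognition particle (SRP). These 4 genes are among 7 annotated RNA genes of the 3 particles and 46926 annotated genes in all. They were chosen from the measured values: each has a peak that passed the authors' threshold in the list that compares the true replicates, and the other 3 RNA genes, srpr-1.1, srpr-2.2 and srpr-3, do not. That the 4 genes have such a peak, and the height of that peak, is therefore a description and carries no test. For scale, 0.69% of all annotated genes and 1.12% of the genes annotated as ncRNA, the biotype of all 7 RNA genes, had a thresholded peak within 200 bp in that list.

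The study mapped DNA recovered with DAF-8 in whole Caenorhabditis elegans by chromatin immunoprecipitation and sequencing (ChIP-seq), in 1 group of 2 biological replicates. All worms were of strain OP790, carrying the transgene wgIs790 (daf-8::TY1 EGFP 3xFLAG with unc-119(+)) in the unc-119(tm4063) mutant background, and were L4 larvae of 47 h whose synchronisation was by starvation of L1 larvae after bleaching. An anti-GFP antibody precipitated the tagged protein from sonicated chromatin. The tagged DAF-8 comes from 1 transgenic line, and the labels do not say whether the endogenous daf-8 gene was intact. No input library and no worms without the tag were analysed here, so recovery that does not depend on tagged DAF-8 was not measured. In whole worms, strong occupancy in few cells and weak occupancy in many cannot be told apart.

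DAF-8, an R-SMAD, carries TGF-beta signals to the nucleus in the pathway that decides whether a worm larva enters the resting dauer stage. RNase P removes the leader from precursor tRNAs, RNase MRP is a related enzyme that in yeast cuts precursor ribosomal RNA, and SRP brings ribosomes that are making secreted or membrane proteins to the endoplasmic reticulum. In human cells the RNAs of all these particles are made by RNA polymerase III, which reads the RNase P and MRP RNA genes from elements upstream of their start and the SRP RNA genes partly from elements inside them.

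Sequences around the starts of the genes are given from the RefSeq genome of assembly WBcel235, the same assembly as ce11. They are placed by the annotated start and not by the summit, and none is printed for rpr-1. The window of mrpr-1 ends before its summit, and that of srpr-2.1 ends before its peak begins. For mrpr-1 the window runs from 80 bases before the first base of the gene to base 19 of it, where the first base counts as 0 (plus strand, chrII:7200153-7200252). Capitals mark an 11-letter word that recurs upstream of rpr-1 and a run of T and A that holds TATATAA and TATAAA.
mrpr-1: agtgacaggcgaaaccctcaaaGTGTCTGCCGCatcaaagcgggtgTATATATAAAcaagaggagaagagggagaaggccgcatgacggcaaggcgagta

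For the SRP RNA genes, windows of 80 bases from 50 before the start to base 29 are shown because the copies are alike in the gene and differ before it; capitals mark the first 30 bases of each gene. srpr-1.2 and srpr-2.1 lie on the plus strand (chrIII:4369418-4369497 and chrIII:5211170-5211249), and srpr-1.1, srpr-2.2 and srpr-3 on the minus strand (chrIII:4379177-4379256, chrIII:5031679-5031758 and chrV:9293603-9293682).
srpr-1.2: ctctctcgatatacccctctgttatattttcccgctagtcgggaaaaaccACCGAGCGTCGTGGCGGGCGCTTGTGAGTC
srpr-2.1: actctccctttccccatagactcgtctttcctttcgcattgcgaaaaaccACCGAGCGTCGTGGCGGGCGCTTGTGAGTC
srpr-1.1: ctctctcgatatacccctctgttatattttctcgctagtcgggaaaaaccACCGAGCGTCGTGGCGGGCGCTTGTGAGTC
srpr-2.2: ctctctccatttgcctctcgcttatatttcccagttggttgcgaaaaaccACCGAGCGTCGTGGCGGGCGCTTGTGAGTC
srpr-3: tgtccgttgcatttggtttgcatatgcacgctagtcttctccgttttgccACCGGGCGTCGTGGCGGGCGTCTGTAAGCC
All 30 first bases were identical in srpr-1.2, srpr-2.1, srpr-1.1 and srpr-2.2, and 25 of them in all 5 copies. Of the 50 bases before the start, 20 were identical in those 4 genes and 5 in all 5 copies. The 4 genes share an unbroken run of 8 bases up to the start, which srpr-3 does not have.

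The values below are the signal of a peak as deposited and the IDR (irreproducible discovery rate). The signal is a height with no stated unit or scaling for depth. The IDR estimates the share of peaks at that IDR or lower that do not recur between the lists compared. It need not follow the rank by signal. The highest IDR in the thresholded true-replicate list was 0.00997. The true-replicate list gives 1 signal for each peak and, beside it, the signals of the matched peaks in the 2 lists compared. These were taken as the lists of replicate 1 and replicate 2. Its 240 thresholded peaks out of 101032 ranked ones had a median signal of 71.6, with quartiles of 65.4 and 86.0 and a highest value of 215; the median of all ranked peaks was 17.0. Each replicate was also deposited as a list of its own, with 62 thresholded peaks for replicate 1 and 77 for replicate 2. Read counts are in none of the lists, so depth is unknown.

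The RNase P RNA gene had the strongest peak of the 7 RNA genes. rpr-1 (WBGene00045238, chromosome I, 13463955 to 13464207, plus strand, 253 bp) lies in an intron of ints-8, which encodes a subunit of the Integrator complex and is read from the other strand. The peak spanned 13463787 to 13464110, with its summit 6 bases before the start of the RNA gene. The signal was 75.8 in replicate 1 and 87.8 in replicate 2, a mean of 81.8 ± 8.47 (SD, n = 2). In the true-replicate list the signal was 157, rank 9 of 101032, with an IDR of 1.21e-04. Both replicates were thus high at this gene, and neither overlapped the range of any other RNA gene of the list. rpr-1 was also the member with a thresholded peak in every list: its rank was 13 with an IDR of 2.58e-04 in replicate 1 alone, and 8 with an IDR of 1.87e-04 in replicate 2 alone.

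A further ranked peak at rpr-1 shows how the lists assign values. Its summit lay at base 201 with a signal of 7.13 (rank 87018), yet its IDR was 1.27e-04 and it stood in the thresholded list. The 2 signals matched to it, 75.8 and 87.8, are those of the main peak: both compared peaks are shared. In the pooled list its IDR was 0.607 and it did not pass. Of the 240 thresholded peaks, 23 shared both compared peaks with a stronger one, and their median signal was 6.18 against 73.3 for the rest. The weak peak is therefore not counted here as a separate place of recovery.

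mrpr-1 (WBGene00045095, chromosome II, 7200233 to 7200418, plus strand, 186 bp), the RNase MRP RNA gene, lies between genes. The nearest protein-coding gene, pcrg-1, is 130 bases away on the same strand. The peak at mrpr-1 spanned 7200126 to 7200449, with the summit at base 55, inside mrpr-1. Whether the peak belongs to mrpr-1 or to pcrg-1 was not tested. The signal was 35.4 in replicate 1 and 42.5 in replicate 2, a mean of 38.95 ± 5.06 (SD, n = 2). In the true-replicate list it was 80.1, rank 92, with an IDR of 0.00236. The replicates stood close together, below rpr-1 and within the range of srpr-2.1. In replicate 1 alone the IDR was 0.0728 and the peak did not pass, whereas in replicate 2 alone it was 0.00301 and did. The summit lay between bases 49 and 55 in all lists, the narrowest spread of the 7 RNA genes. A weaker peak at base 254, beyond the end of the gene, had a signal of 17.7 and an IDR of 0.827 in the true-replicate list; it passed in the pooled list, at 0.00222, and in replicate 2 alone, at 0.00279 with a signal of 9.72. In replicate 2 the signals matched to it, 26.3 and 24.7, are those of the main peak, as with the weak peak at rpr-1, so this peak is not counted as a separate place of recovery either.

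Among the SRP RNA genes, srpr-2.1 had the highest signal. srpr-2.1 (WBGene00195016, chromosome III, 5211220 to 5211518, plus strand, 299 bp) lies between genes, 262 bases from the protein-coding gene ZC155.4. Its peak spanned 5211254 to 5211577, with the summit at base 196, in the later part of the gene. The signal was 56.5 in replicate 1 and 33.0 in replicate 2, a mean of 44.7 ± 16.6 (SD, n = 2). This was the widest difference in signal between replicates among the 7 RNA genes. The ratio of replicate 1 to replicate 2 over the matched peaks was wider at srpr-2.2, at 2.13, than at srpr-2.1, at 1.71. In the true-replicate list the signal was 92.6, rank 48, with an IDR of 0.00178. Replicate 1 stood above both values of mrpr-1 and replicate 2 below both. The call followed the same order: the IDR was 0.00154 in replicate 1 alone, which passed, and 0.0156 in replicate 2 alone, which did not.

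srpr-1.2 (WBGene00045168, chromosome III, 4369468 to 4369766, plus strand, 299 bp) lies in an intron of ckb-2, a choline kinase gene on the same strand. Its peak spanned 4369365 to 4369688, with the summit at base 59. The signal was 28.7 in replicate 1 and 38.2 in replicate 2, a mean of 33.5 ± 6.72 (SD, n = 2). In the true-replicate list it was 56.0, rank 435, with an IDR of 0.00623, the nearest to the threshold among the 4 genes. It passed in that list alone: the IDR was 0.0790 when the reads were pooled, 0.831 for replicate 1 and 0.196 for replicate 2 by itself. A weaker peak at base 274 had a signal of 32.4 and an IDR of 0.687.

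**Figure D1:**
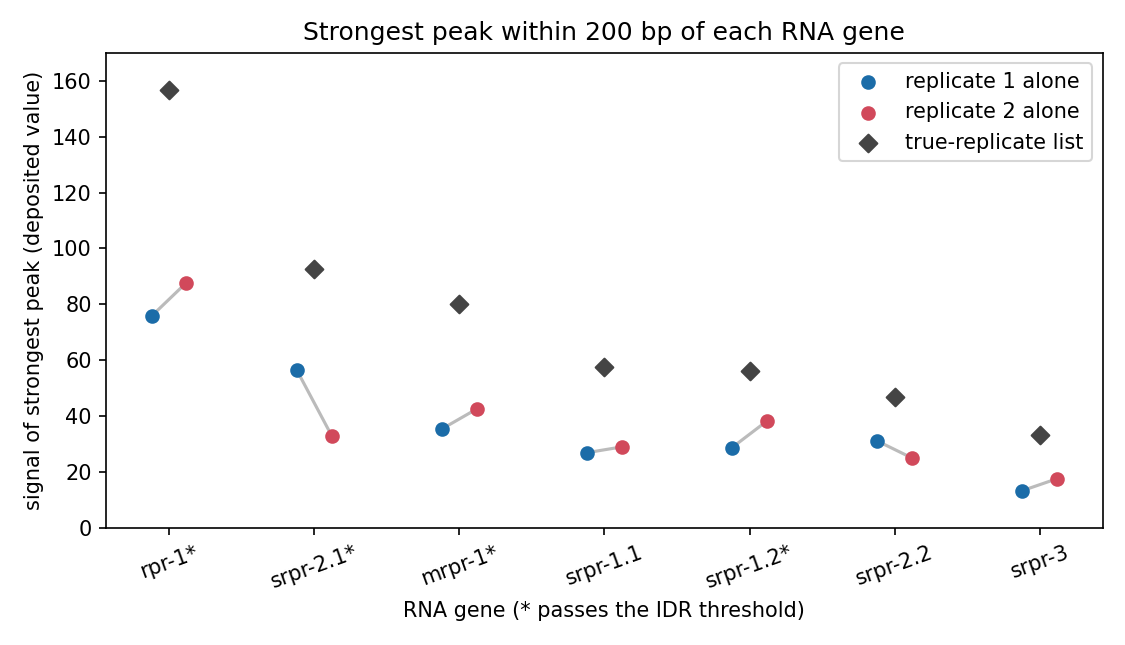
Deposited signal of the strongest peak at each of the 7 RNA genes (vertical axis, no unit) in each replicate alone and in the true-replicate list, ordered by the latter. rpr-1 stands above the rest in both replicates, at 75.8 and 87.8, while the replicates of srpr-2.1, at 56.5 and 33.0, enclose those of mrpr-1.

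The 3 SRP RNA genes outside the threshold had true-replicate signals of 57.7 to 33.0 at their strongest peaks. The median strongest signal of genes with a ranked peak was 24.8 over all genes and 21.4 over ncRNA genes. srpr-1.1 (WBGene00045189, chromosome III, 4378909 to 4379206, minus strand) lies 1 base from pals-26 and was the nearest outside: its signal was 26.9 in replicate 1 and 28.95 in replicate 2, a mean of 27.9 ± 1.46 (SD, n = 2). Its signal in the true-replicate list, 57.7, was above the 56.0 of srpr-1.2, but its IDR was 0.0186. In each replicate srpr-1.2 was the higher of the pair, although the ranges of both genes over the replicates overlapped slightly.

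srpr-2.2 (WBGene00195017, chromosome III, 5031410 to 5031708, minus strand) lies in an intron of klp-6, a kinesin gene. The true-replicate list paired a peak of 31.1 in replicate 1 with one of 14.6 in replicate 2, a mean of 22.8 ± 11.7 (SD, n = 2), with an IDR of 0.218 at a signal of 46.8. The strongest peak of replicate 2 at this gene was another one, of 24.96 at base 264. srpr-3 (WBGene00195018, chromosome V, 9293334 to 9293632, minus strand), the most diverged copy, had 13.3 and 17.6, a mean of 15.4 ± 3.04 (SD, n = 2), and an IDR of 0.398. Its signal in the true-replicate list was 33.0. Ordered by the mean of the matched peaks, rpr-1 was followed by srpr-2.1, mrpr-1, srpr-1.2, srpr-1.1, srpr-2.2 and srpr-3. In that order rpr-1 stood clear of its neighbour, and the ranges of all other neighbours overlapped. Within replicates, mrpr-1 was above srpr-1.2, and srpr-1.2 above srpr-1.1, in both; the other overlapping neighbours changed order between the replicates.

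**Figure D2:**
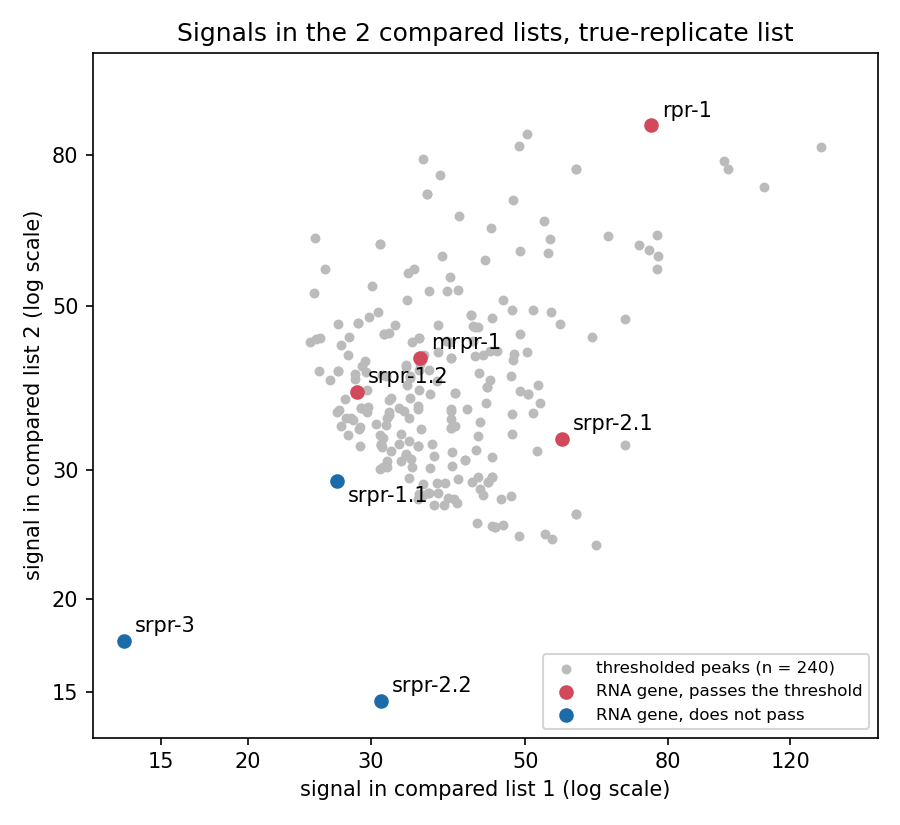
Signals of the matched peaks in the 2 compared lists of the true-replicate list (list 1, replicate 1, horizontal; list 2, replicate 2, vertical; both log axes, no unit) for the 240 thresholded peaks in grey and the 7 RNA genes in colour. rpr-1 lies near the top right, srpr-2.1 toward list 1, and srpr-1.1, at 26.9 and 28.95, at the edge of the thresholded peaks.

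The SRP RNA copies are nearly the same sequence. srpr-1.2 and srpr-1.1 were 98.3% identical over the gene, with 4 mismatches and 1 gap, and srpr-2.1 and srpr-2.2 were 99.0% identical, with 3 mismatches. srpr-1.2 and srpr-2.1, the copies with a thresholded peak, were 94.3% identical, and srpr-3 was 81.7 to 82.5% identical to the others. The genes of srpr-1.2 and srpr-2.1 differ at 17 of 299 bases, in capitals here, of which 4 are in the first 149 bases and 13 after (positions 49 to 298, counted from 1 at the start of the gene; coordinates as given above).
srpr-1.2: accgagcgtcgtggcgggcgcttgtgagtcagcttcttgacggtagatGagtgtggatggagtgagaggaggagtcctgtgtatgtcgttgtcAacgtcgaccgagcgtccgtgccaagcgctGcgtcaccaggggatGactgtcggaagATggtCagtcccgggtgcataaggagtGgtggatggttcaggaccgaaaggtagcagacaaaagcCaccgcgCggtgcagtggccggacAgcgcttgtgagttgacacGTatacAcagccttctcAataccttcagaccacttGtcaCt
srpr-2.1: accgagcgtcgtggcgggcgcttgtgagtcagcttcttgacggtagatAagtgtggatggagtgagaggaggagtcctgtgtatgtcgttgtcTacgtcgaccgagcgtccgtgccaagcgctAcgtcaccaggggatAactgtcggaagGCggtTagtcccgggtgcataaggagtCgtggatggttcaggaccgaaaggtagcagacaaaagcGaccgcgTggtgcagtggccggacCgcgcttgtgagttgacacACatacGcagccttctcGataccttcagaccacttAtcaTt
The upstream 200 bases were less alike, at 49.8 to 73.3% over the 10 pairs, with srpr-1.2 and srpr-1.1 the most alike. The RNase P and RNase MRP RNA genes were 50% identical to each other in an alignment with 85 gap positions.

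Short reads from such copies can match more than 1 place, and how the authors placed such reads was not given in the sources used here; the values at these copies are therefore uncertain. Of the 50-base stretches within srpr-2.1, 61.2% occurred elsewhere in the genome, as did 58.8% of those in srpr-1.2, 59.6% in srpr-2.2 and 76.7% in srpr-1.1. None did in rpr-1, mrpr-1 or srpr-3. Of the 36-base stretches in the flanks of 200 bp on both sides, counted jointly, 9.09% recurred at srpr-1.2 and 10.6% at srpr-1.1, and none at the other 5 RNA genes.

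The replicates' own lists give a further reading of this spread, since each holds the signals of 2 lists compared within that replicate. At rpr-1 these were 40.2 and 36.8 in replicate 1 and 38.8 and 47.1 in replicate 2. At mrpr-1 they were 16.02 and 18.3, and 26.3 and 24.7. At srpr-2.1 they were 33.0 and 23.2, and 21.3 and 19.6. The larger value exceeded the smaller by at most 1.42-fold at these genes, where the median over all ranked peaks was 1.44 in replicate 1 and 1.42 in replicate 2. Over thresholded peaks alone the medians were lower, at 1.27 and 1.22, and srpr-2.1 in replicate 1 stood near the upper quartile of that replicate, 1.42.

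srpr-1.2 stood apart from them. Its signals within replicate 1 were 5.70 and 23.7, a ratio of 4.17, and within replicate 2 they were 11.2 and 34.2, a ratio of 3.06, where the matched summits lay at bases 328 and 64. srpr-1.1 and srpr-2.2 had ratios of 3.33 and 4.69 in replicate 1 and 1.46 and 1.13 in replicate 2, and srpr-3, which holds no repeated stretch, 2.51 and 1.78. The upper quartile over all ranked peaks was 1.85 in replicate 1 and 1.81 in replicate 2. At srpr-2.1, where 61.2% of the 50-base stretches are repeated, the ratios were 1.42 and 1.09. In rpr-1 and mrpr-1, which hold no repeated stretch, they were 1.09 and 1.21, and 1.14 and 1.06. The part of repeated sequence in these ratios was not tested.

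**Figure D3:**
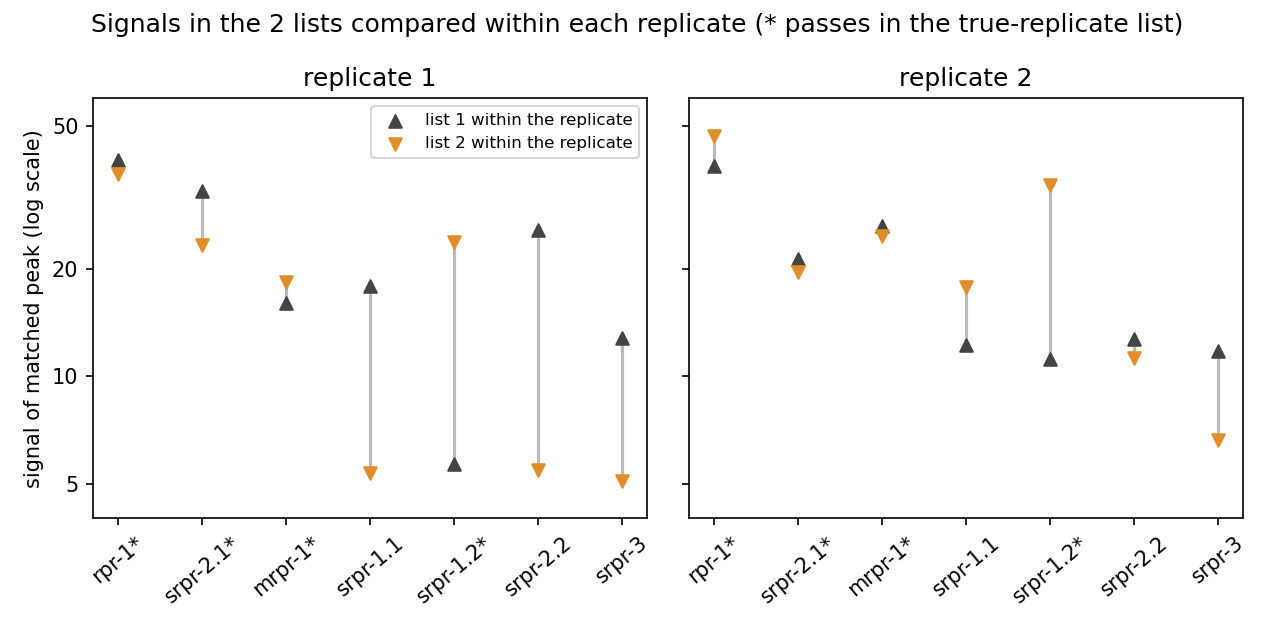
Signals in the 2 lists compared within each replicate (vertical log axis, no unit) for each of the 7 RNA genes, joined by a line. The lines are short at rpr-1, mrpr-1 and srpr-2.1. In replicate 1 they are long at srpr-2.2 (25.6 and 5.45), srpr-1.2 (5.70 and 23.7) and srpr-1.1 (17.9 and 5.37). In replicate 2 the longest is at srpr-1.2.

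The summits lay at different places in the genes. At rpr-1 they fell between 31 bases before the start and base 29 over the lists, at the start of the gene. At mrpr-1 they lay inside the gene close to its start, and at srpr-2.1 between bases 167 and 208, in the later part. At srpr-1.2 they moved from base 59 to base 171, depending on the list. The other copies had summits at bases 120 to 164 for srpr-1.1, 47 to 264 for srpr-2.2 and 73 to 109 for srpr-3. Nearly all ranked peaks, 101030 of 101032, were 324 bp wide, so the peak edges carry no detail and the place is read from the summit.

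**Figure D4:**
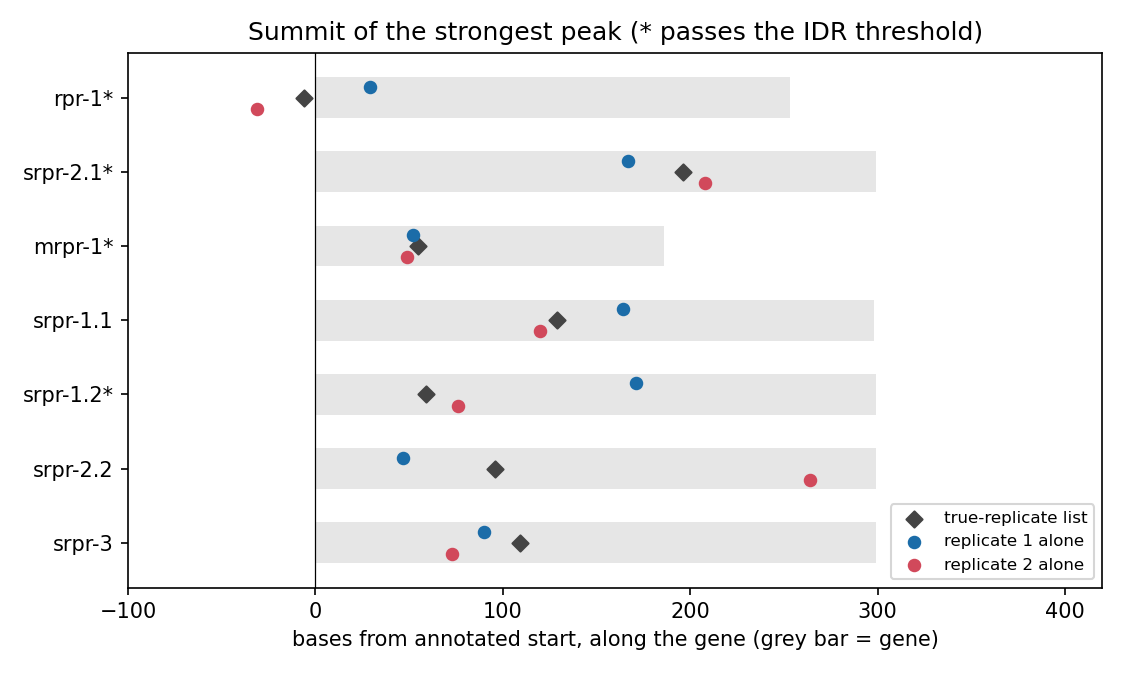
Summit of the strongest peak at each of the 7 RNA genes in each list, as bases from the start of the gene along its strand (horizontal axis), with the gene drawn as a bar. The summits of mrpr-1 fall within 6 bases of each other, and those of srpr-2.2 spread over 217 bases.

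The bases around the summits were rich in G and C. Within 50 bases either side of the summit, G and C made up 61.4% at rpr-1 and srpr-2.1, 58.4% at mrpr-1 and 57.4% at srpr-1.2. The median over the 240 thresholded peaks was 49.5%, with quartiles of 42.6 and 55.4%. All 4 genes thus lay above the upper quartile, as did srpr-1.1, srpr-2.2 and srpr-3, at 57.4 to 68.3%, which did not pass the threshold.

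Sequence words tied to RNA polymerase III and to SMAD proteins were looked for on both strands; a match is a description and not a bound site. No member promoter, from 250 bases before the start to 50 after it, held the A box TGGCNNAG of internal promoters, found in 7.05% of all promoters, and none held the B box GTTCNANNC, found in 9.99%. In the first 300 bases from the start the A box was found at rpr-1 alone, on the minus strand, and in 8.39% of all genes. TATAAA stood in the promoters of mrpr-1 and srpr-2.1, and also of srpr-2.2 and srpr-3, against 37.4% of all promoters. At srpr-2.2 and srpr-3 it lay only on the strand opposite to the gene. Within the 100 bases upstream it was found at mrpr-1 alone, 30 to 25 bases before the start, and in 17.5% of all genes. GTCT, the core that SMAD proteins bind, stood in the promoters of all 7 RNA genes, but 73.0% of all promoters hold it. Near the summits, GTCT was found at rpr-1, srpr-2.1 and srpr-2.2, against 50.4% of the thresholded summits. At mrpr-1 the GTCT of the promoter, at 56 to 53 bases before the start, lies within the recurring word shown in capitals above. Its last T is at the open position of that word, and the 100 bases upstream of rpr-1 hold no GTCT. TTTT, the signal at which this polymerase stops, stood in 99.7% of all promoters. At each of the 7 RNA genes a run of 4 to 7 T began within 7 bases of the last annotated base. The share of all genes with such a run there was not computed.

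rpr-1 and mrpr-1 share words within 100 bases upstream that the SRP genes lack there; these words were chosen after the data were seen. TATATAA stood 30 to 24 bases before the start of rpr-1 and 32 to 26 bases before that of mrpr-1, and in the 100 bases upstream of 3.52% of all genes. An 11-letter pattern with 1 open position, the word in capitals in the mrpr-1 line, began 56 bases before rpr-1 and 58 before mrpr-1. It occurred in the 100 bases upstream of 14 of 46926 genes, or 0.0298%, of which 6 are ncRNA and 6 snoRNA genes. Of these 14 genes, 3 had a thresholded peak: rpr-1, mrpr-1 and F59C6.15. Because the word was found from rpr-1 and mrpr-1, which were chosen for their peaks, that count supports nothing about the word.

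The protein genes listed for the 3 particles were looked at in the same way. The list held 16 such genes, drawn by name and from RefSeq text, and 0 had a thresholded peak, which allows a share of up to 18.8% (3 counts of 16; counting error only). With 0.671% of all protein-coding genes having one, a count of 0 among 16 is no result about these genes. A ranked peak lay at 12 of them, with signals of 6.22 to 30.5, a median of 22.8 and a lowest IDR of 0.307. The value of 6.22 comes from a peak shared by overlapping genes of the list. Over all protein-coding genes with a ranked peak the median strongest signal was 26.8. None stood in the top 1% of ranked peaks. The highest, named after their values were seen, were mig-2, a GTPase gene listed by RefSeq text alone, at 30.5, and srpa-72, a protein of the SRP, at 28.4. Of the whole list of 23 genes, 4 had a thresholded peak, all of them RNA genes. No difference between RNA and protein genes was tested, as the RNA genes were chosen for their peaks.

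Set beside other kinds of genes, the signals at the 4 RNA genes ran from near the top to near the bottom of the thresholded peaks. A thresholded peak lay at 9.62% of tRNA genes, 7.23% of snoRNA genes, 6.20% of snRNA genes, 1.12% of ncRNA genes and 0.671% of protein-coding genes. The median signal of genes with a thresholded peak was 73.7 for ncRNA genes, 73.3 for tRNA genes and 83.0 for snoRNA genes. Among the 87 ncRNA genes with such a peak, rpr-1 ranked 2nd, srpr-2.1 12th, mrpr-1 27th and srpr-1.2 85th. The share of all genes with a thresholded peak was 0.801% in the pooled list, where 3 of the 4 members passed. It was 0.179% for replicate 1 alone, where rpr-1 and srpr-2.1 passed, and 0.224% for replicate 2 alone, where rpr-1 and mrpr-1 passed.

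**Figure D5:**
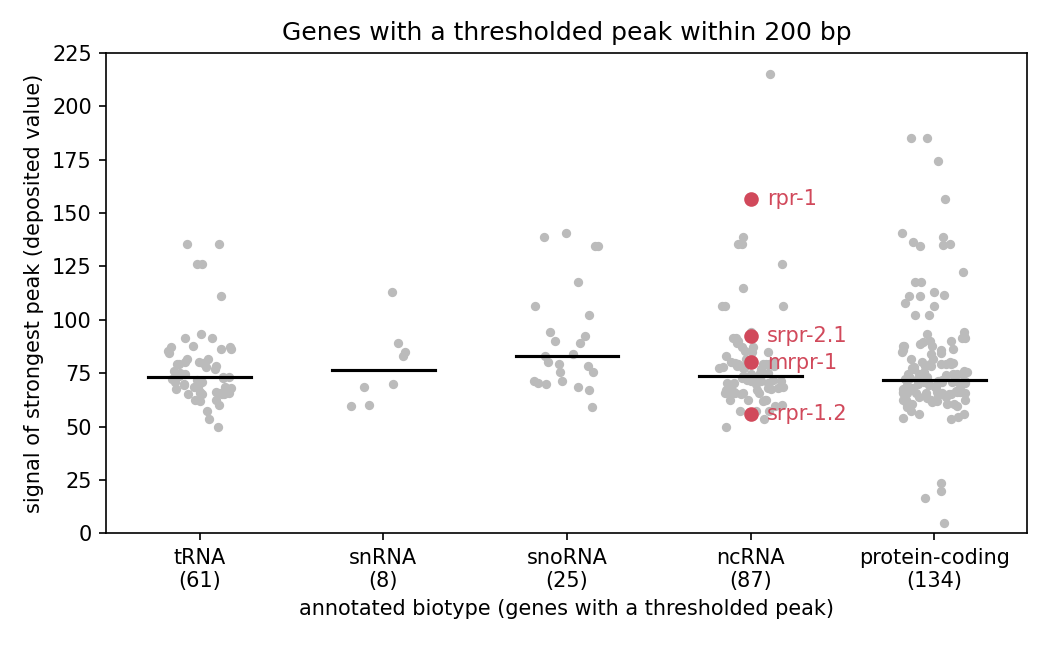
Signal of the strongest ranked peak at genes of each biotype that have a thresholded peak in the true-replicate list (vertical axis, no unit), with the 4 RNA genes marked. rpr-1, at 157, lies near the top of the ncRNA genes and srpr-1.2, at 56.0, near the bottom.

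Other genes with signals like those of the 4 members were found by the distance between log2 signals in the 2 compared lists, over 320 genes with a thresholded peak outside the list of 23. The likeness is over 2 values a gene and describes them only. Nearest to rpr-1 was its host ints-8, which takes its value from the same peak, and then tasp-1, a threonine aspartase gene, with 96.3 and 78.4 (log2 distance 0.38). Nearest to mrpr-1 were the ncRNA genes F56F3.10 and F56F3.11, which share 1 peak of 35.3 and 41.6 (0.03). srpr-1.2 was nearest to its host ckb-2, again the same peak, and to daf-5, which encodes a SKI-family regulator of the dauer pathway, with 28.5 and 39.8 (0.06). srpr-2.1 was nearest to lips-10, with 47.8 and 33.5 (0.24), and to hsp-90, a chaperone gene, with 50.5 and 37.9 (0.26).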

How the data were processed

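Peaks of ChIP-seq in 2 biological replicates of 1 group were read from lists on ce11. The signal and the −log10 of the IDR are as deposited by the authors. The peak caller, the aligner, their versions and what the named control was were not given in the sources used here. Both replicates' lists were made with 1 file in common, according to the deposited texts. Compared list 1 was taken as replicate 1. Of the 101032 ranked peaks, 53284 (52.7%) had a list 1 match that stands in replicate 1's own list, and 0 in replicate 2's. For list 2, 49870 (49.4%) stand in replicate 2's own list and 0 in replicate 1's. The other matches were found in neither list, and a matched peak can be counted more than once.

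A peak was assigned to a gene of Ensembl release 115 when its summit lay within 200 bp. Signals, ranks by signal and summit distances were computed with Python 3.11.15, pandas 2.3.3 and Biopython 1.88, after the assignment was tested on simulated peaks. No test between groups was possible. How the cultures of the replicates were separated is not stated, so their spread may be technical. The members and lists were chosen with earlier results of these data known. The text names the 7 RNA genes, protein genes of the list in the top 1% of ranked peaks, the host or neighbour of each member and its 2 nearest genes by signal; no protein gene met the second, and mig-2, srpa-72 and F59C6.15 were named outside this rule, after their values were seen. Other lists, IDR limits and distances were tried.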

Additional observations from a re-analysis of the deposited data

How the results depend on the processing

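Of the 4 members with a thresholded peak in the true-replicate list, and likewise of the 23 RNA and protein genes of the particles, 3 had one in the pooled list, and 1, rpr-1, at a stricter IDR of 0.001. With 1 replicate left out the count was 2 to 2: rpr-1 and mrpr-1 in replicate 2 alone, rpr-1 and srpr-2.1 in replicate 1 alone. Counts were 4 with distances of 0, 100 and 500 bp, and for the members also with an overlap of 1 bp. At 0 bp rpr-1 counted only through its weak peak of signal 7.13. The members were chosen for a thresholded summit within 200 bp, so their count at 500 bp had to be 4. For the 23 genes, the count of 4 at 500 bp means that no other gene of the list gained a thresholded peak. The share of all genes with one at these distances, or at an IDR of 0.001, is not given for comparison. The signals, ranks and summits of the members in each list stand beside their results and are not read as a check of stability: the pooled list carries the true-replicate signals, those signals exceed either replicate's own at all 4 members, and ranks come from lists of unequal length. No paired analysis was possible because there is 1 group. Depth is unknown, and no input or untagged sample was analysed.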
